A study of Homo sapiens with 24 samples.

Results

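Expression of 8 genes of the Wnt pathway was followed across 24 arrays of AC16 cells: CCN4 (WISP1 in the array annotation), DKK1, AXIN2, WNT5A, WNT5B, FZD7, LRP6 and TCF7L2, out of 22260 genes with values. The group was chosen by its symbols and, for CCN4, by the finding that the difference between digoxin and vehicle was not the same at T4 and T20 at either dose. CCN4 was therefore selected on its digoxin differences at both times and doses, and these are described below without a test. The other members were picked by name, with earlier results of these data known, and entered a fit of all genes. Of the 8 members, 7 passed the filter on low values and were tested among 11764 genes. AXIN2 lay below it and is given as values, with an adjusted p only from a fit without the filter.

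AC16 is an immortalized human line that descends partly from adult ventricular heart muscle cells. Cells of all 8 groups had been synchronized with 100 nM dexamethasone, a synthetic glucocorticoid, for 2 h, and each group held 3 arrays. The T4 and T20 groups had received 0.5 µM digoxin, 5 µM digoxin or vehicle, and the T0 and T16 groups had received nothing. Digoxin is a cardiac glycoside that blocks the sodium potassium pump. The sample labels place collection 4 h after treatment at both T4 and T20, whereas the growth protocol counts 4, 16 and 20 h from treatment, so the length of exposure at T20 cannot be settled here. The labels do not state whether the 3 samples of a group came from separate cultures, so the p-values cover only the spread among these samples, technical or not. Of 16 cardiomyocyte markers, 1 lay above the filter on low values, against 11 of 12 fibroblast markers. Of the other cell type lists, 1 of 5 endothelial, 4 of 6 smooth muscle and 0 of 4 leukocyte markers on the array lay above it. The mean level of the smooth muscle markers lay between 7.31 and 7.59 with 5 µM at T4, against 7.17 to 7.29 with vehicle, and that of the endothelial markers between 4.87 and 4.99 with 0.5 µM at T20, against 4.77 to 4.86 with vehicle. For every other list and dose the ranges of digoxin and vehicle overlapped. With digoxin 2, 3, 1 and 0 of the 11 fibroblast markers were lower (0.5 and 5 µM at T4, then at T20) and 0 were higher. Of the 4 smooth muscle markers 2, 2, 1 and 2 were higher in the same order, and 1 was lower with 5 µM at T20. Of all genes 9.76%, 22.1%, 10.8% and 26.1% were called in these comparisons. The part of any of these lists in the results below was not tested.

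Wnt proteins are secreted ligands that bind Frizzled receptors. Together with the coreceptors LRP5 and LRP6 they stop a cytoplasmic destruction complex from degrading beta-catenin, which then enters the nucleus and activates target genes with TCF and LEF factors. Other Wnt ligands, WNT5A among them, act mostly through branches that do not use beta-catenin. In the heart the pathway is best known for patterning during development and for its reactivation after injury. CCN4 is a secreted matricellular protein first found as a gene induced by Wnt1. DKK1 is a secreted antagonist that binds LRP5 and LRP6 and is itself a Wnt target, and AXIN2 is both a scaffold of the destruction complex and a feedback target.

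Promoter windows are shown for the ligand genes and DKK1, because these 3 genes moved together between the untreated groups. RefSeq windows of GRCh38.p14, from 250 bases before a transcript start to 50 after it, were held for WNT5A, WNT5B, DKK1 and TCF7L2. They were searched on both strands for TCF/LEF letters (the form CTTTGAT, also the form CTTTGAA, also the form CTTTGTT and also the form CTTTGTA), for the AP-1 letters TGANTCA and for the TEAD letters GGAATG, none of which overlapped each other in these windows. The DKK1 window, chr10:52314031-52314330 on the plus strand, held CTTTGAA at position -95 from the start, CTTTGTT at position -76 and GGAATG at position -50, shown in capitals. The first listed windows of WNT5A (chr3:55487257-55487556, minus strand) and WNT5B (chr12:1616806-1617105, plus strand) held none of these letters, nor did the second window of either gene.
DKK1: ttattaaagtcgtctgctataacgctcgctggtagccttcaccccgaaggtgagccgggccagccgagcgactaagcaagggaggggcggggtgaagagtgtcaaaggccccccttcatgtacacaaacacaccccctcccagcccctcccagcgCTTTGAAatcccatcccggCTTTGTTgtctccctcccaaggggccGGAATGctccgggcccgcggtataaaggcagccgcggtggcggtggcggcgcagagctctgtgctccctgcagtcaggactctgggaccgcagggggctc
WNT5A: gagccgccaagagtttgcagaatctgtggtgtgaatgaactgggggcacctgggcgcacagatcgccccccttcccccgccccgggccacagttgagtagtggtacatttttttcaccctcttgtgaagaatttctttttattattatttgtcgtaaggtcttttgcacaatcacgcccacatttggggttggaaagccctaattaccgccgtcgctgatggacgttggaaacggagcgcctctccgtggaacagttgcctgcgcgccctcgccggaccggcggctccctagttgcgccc
WNT5B: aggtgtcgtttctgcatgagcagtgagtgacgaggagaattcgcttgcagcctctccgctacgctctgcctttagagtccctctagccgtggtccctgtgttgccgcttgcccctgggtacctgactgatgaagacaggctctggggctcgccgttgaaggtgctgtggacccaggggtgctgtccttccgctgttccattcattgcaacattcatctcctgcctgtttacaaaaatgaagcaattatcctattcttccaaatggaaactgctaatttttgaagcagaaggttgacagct
Of 35116 such windows of all genes, 13.8% held a TCF/LEF match, 7.71% an AP-1 match and 14.0% a TEAD match. The match in 1 of 3 TCF7L2 windows was CTTTGTT. Matches are a description of letters and not of bound sites.

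All values below are on the deposited log2 scale after quantile normalization, so a difference is relative to the other probe sets of the array and is not a linear fold. A gene passed at a two-sided adjusted p under 0.05 (limma, Benjamini-Hochberg over 11764 genes). The signal of the spiked-in poly-A controls, relative to the other probe sets, differed between groups, and on a scale set by these controls the median of all genes lay at -0.12 (0.5 µM) and -0.26 (5 µM) for digoxin minus vehicle at T4, and at -0.32 and -0.73 at T20. On the same scale the median of all genes was -0.26 for T16 minus T0 and 0.45 for T20 vehicle minus T16. The hybridization controls, which are added to the labelled material after amplification, moved the same way at T20, by 0.41 (0.5 µM) and 0.59 (5 µM) beside 0.34 and 0.72 for the poly-A controls, and by -0.43 beside -0.51 for T20 vehicle minus T16. For T16 minus T0 they moved by 0.04 beside 0.29. What sets the poly-A scale was not tested. Values on that scale are given where a direction depends on it. As these are bulk samples, fewer cells that express a gene and less RNA per cell cannot be told apart.

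CCN4 was high in every group that had been treated at T4 and, at T20, only in vehicle. At T4 its log2 values were 10.11, 10.09 and 9.92 with vehicle, 9.63, 9.93 and 9.96 with 0.5 µM digoxin, and 10.10, 9.98 and 10.08 with 5 µM digoxin. At T20 they were 10.43, 10.32 and 10.39 with vehicle, 9.23, 9.06 and 9.02 with 0.5 µM, and 8.91, 8.94 and 9.10 with 5 µM. At T4 the 3 groups overlapped apart from a gap between the doses, and at T20 every digoxin array lay more than 1 log2 unit below every vehicle array. Untreated cells had 8.68, 8.95 and 8.56 at T16 and 8.60, 8.41 and 8.79 at T0.

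**Figure D1:**
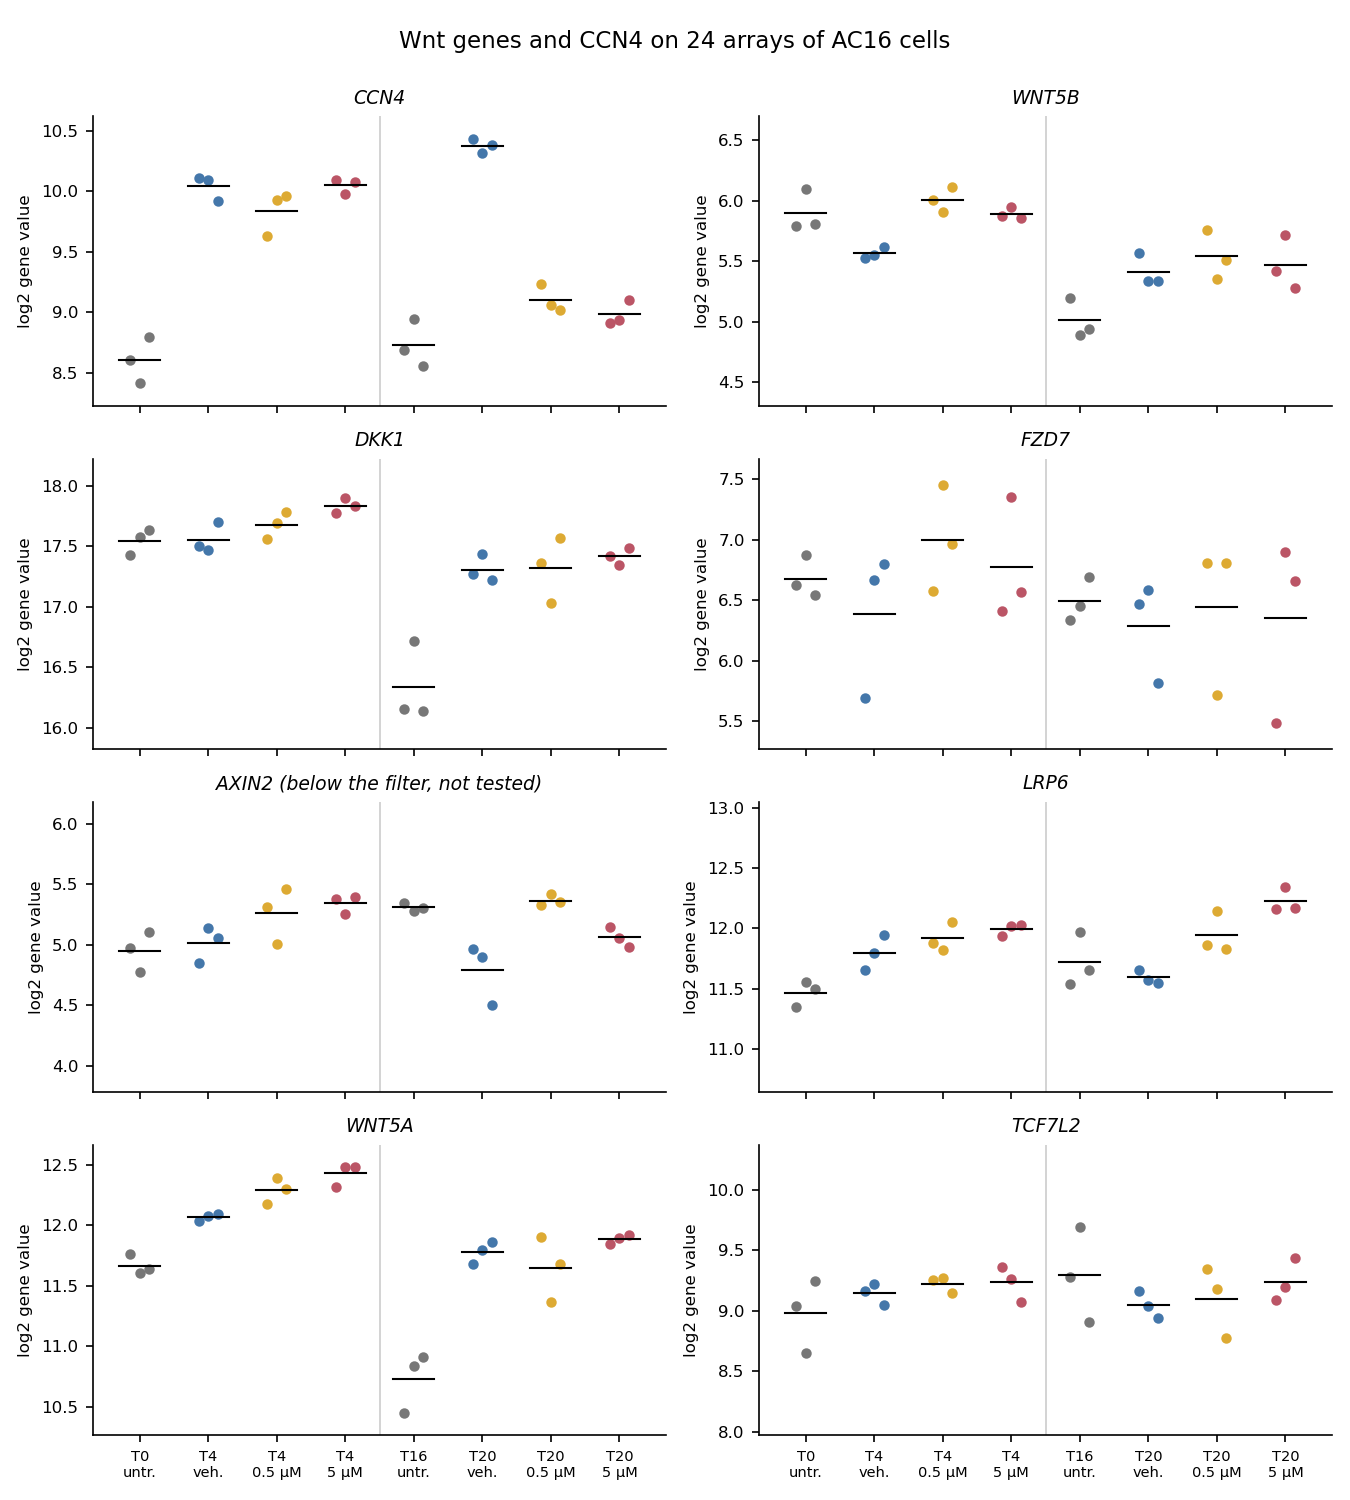
Log2 gene values of the 8 members on each of 24 arrays (points) with group means (lines), by group; the panels differ in the position of their axis, and levels are not comparable between genes. CCN4 with digoxin at T20 lies between 8.91 and 9.23, close to the untreated cells, and T16 is the lowest group for DKK1, WNT5A and WNT5B.

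Digoxin minus vehicle for CCN4 was -0.20 at 0.5 µM and 0.01 at 5 µM at T4, against -1.27 and -1.40 at T20 (SE 0.11 each). The difference at T20 minus that at T4 was -1.07 ± 0.16 (SE) at 0.5 µM and -1.41 ± 0.16 at 5 µM. These are the values the choice of CCN4 rests on. The 2 doses lay close together at T20, with a mean of 8.98 ± 0.10 at 5 µM and 9.10 ± 0.11 at 0.5 µM (SD, n = 3 each), and their ranges overlapped. On the poly-A scale the T20 differences of CCN4 were -1.57 at 0.5 µM and -2.05 at 5 µM, again below the median of all genes on that scale.

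In the order of its group means CCN4 ran from T0 (8.60) through T16 (8.73), 5 µM at T20 (8.98), 0.5 µM at T20 (9.10), 0.5 µM at T4 (9.84), T4 vehicle (10.04) and 5 µM at T4 (10.05) to T20 vehicle (10.38). Neighbours overlapped in range except at 2 steps, between 0.5 µM at T20 and 0.5 µM at T4 and between 5 µM at T4 and T20 vehicle. The first step parts the untreated cells and the T20 digoxin cells from the others. Cells given digoxin at T20 lay 0.37 (0.5 µM) and 0.25 (5 µM) above untreated T16 cells, while cells given digoxin at T4 lay 1.23 and 1.45 above untreated T0 cells. Without digoxin, vehicle lay above untreated cells by 1.44 at T4 against T0 and by 1.65 at T20 against T16, comparisons in which time and vehicle change together. The untreated groups, which the choice of CCN4 did not use, differed by 0.13 ± 0.11 (SE) for T16 minus T0 (adjusted p = 0.436 by limma), with a call only when the median of the probe sets stood for the gene (0.72, adjusted p = 0.0108).

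The 8 probe sets of CCN4 (chr8:133191039-133231690 in GRCh38.p14) were lower with digoxin throughout at T20. All 8 were lower with 5 µM digoxin, by -1.95 to -0.93, and in 7 of them every digoxin array lay below every vehicle array. At 0.5 µM all 8 were lower as well, by -1.72 to -0.42, with no overlap in 6. At T4 the probe sets were mixed, with 3 higher and 5 lower at 5 µM and 2 higher and 6 lower at 0.5 µM. T20 vehicle minus T16 was positive in 8 of 8 and T4 vehicle minus T0 in 7 of 8.

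**Figure D2:**
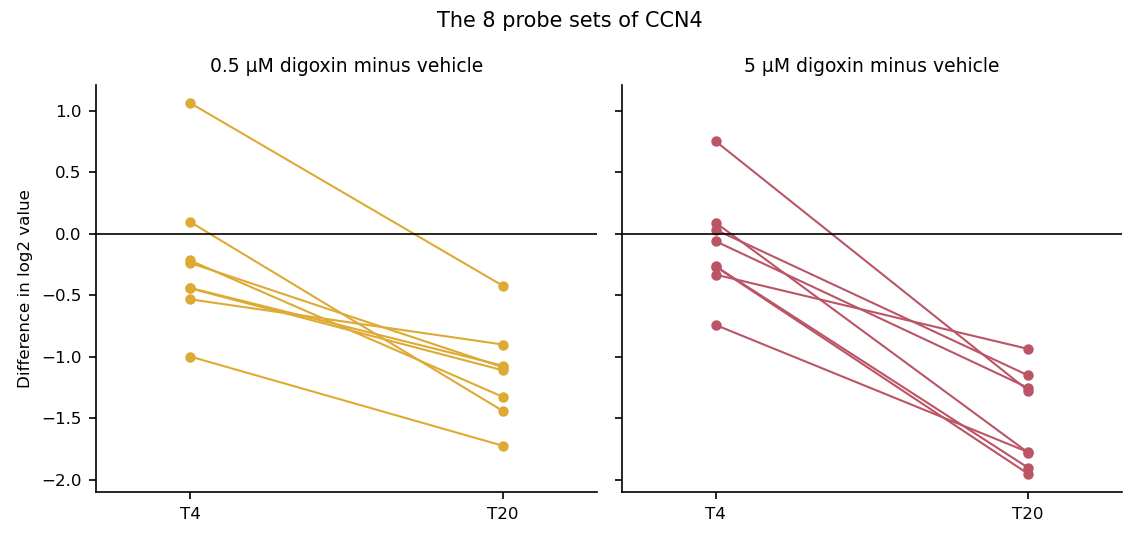
Digoxin minus vehicle (log2) for each of the 8 probe sets of CCN4 at T4 and T20, joined by lines, for 0.5 µM (left) and 5 µM (right). At T20 all 8 lie below 0 at both doses, and the difference of each is lower at T20 than at T4.

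Among the ligands, WNT5A and WNT5B were each called higher at T4 at 1 dose, by small amounts. WNT5A had 12.03, 12.08 and 12.09 with vehicle at T4, 12.18, 12.39 and 12.30 with 0.5 µM, and 12.32, 12.48 and 12.48 with 5 µM. Every digoxin array lay above every vehicle array at both doses. The difference of 0.36 ± 0.12 (SE) at 5 µM passed (limma, adjusted p = 0.0393), and that of 0.22 at 0.5 µM did not (adjusted p = 0.289). At 5 µM 14 of 18 probe sets were higher and 4 lower, and in 3 every digoxin array lay above every vehicle array. At T20 WNT5A had 11.68, 11.79 and 11.86 with vehicle, 11.90, 11.37 and 11.68 with 0.5 µM, and 11.85, 11.90 and 11.92 with 5 µM. Those groups overlapped, and neither difference passed (-0.13, adjusted p = 0.564, and 0.11, adjusted p = 0.552).

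WNT5B had 5.53, 5.55 and 5.61 with vehicle at T4, 6.01, 5.91 and 6.11 with 0.5 µM, and 5.87, 5.94 and 5.86 with 5 µM. Both digoxin groups lay wholly above vehicle. The difference at 0.5 µM was 0.44 ± 0.12 (SE; limma, adjusted p = 0.0266) and that at 5 µM was 0.33 (adjusted p = 0.0638). At 0.5 µM 7 of 10 probe sets were higher and 3 lower, and in 1 every digoxin array lay above every vehicle array. WNT5B entered the test only through the T4 0.5 µM group, whose mean of 6.01 just exceeded the filter value of 6.00, so its call in that comparison is not independent of the filter. At T20 its values were 5.57, 5.34 and 5.33 with vehicle, 5.76, 5.35 and 5.51 with 0.5 µM, and 5.42, 5.72 and 5.28 with 5 µM, with overlap and differences of 0.13 (adjusted p = 0.574) and 0.06 (adjusted p = 0.768). The T4 calls of both ligands were narrow. Without either T4 vehicle array 1, 2 or 3 both were lost, with adjusted p of 0.0994, 0.0821 and 0.0756 for WNT5A and 0.0823, 0.0713 and 0.0509 for WNT5B. WNT5A also fell short in 6 of the 14 other alternatives and without array 2 (0.109) or 3 (0.116) of 5 µM at T4, and WNT5B without array 1 (0.0686) or 3 (0.0991) of 0.5 µM at T4.

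The coreceptor LRP6 rose with 5 µM digoxin at T20. Its values at T20 were 11.66, 11.58 and 11.55 with vehicle, 11.86, 12.14 and 11.83 with 0.5 µM, and 12.16, 12.34 and 12.17 with 5 µM. The 3 groups did not overlap and stood in order of dose. The difference at 5 µM was 0.63 ± 0.11 (SE; limma, adjusted p = 3.2e-04), with 18 of 22 probe sets higher, and that at 0.5 µM was 0.35 ± 0.11 (adjusted p = 0.0509). The doses differed by 0.28 (5 µM minus 0.5 µM), which did not pass (adjusted p = 0.203). On the poly-A scale the 5 µM difference was -0.085 (adjusted p = 0.625) where the median of all genes was -0.73, and with the median of the probe sets it was 0.34 (adjusted p = 0.256). At T4 LRP6 had 11.66, 11.79 and 11.94 with vehicle, 11.88, 11.82 and 12.05 with 0.5 µM, and 11.94, 12.02 and 12.03 with 5 µM. The groups overlapped, and the differences of 0.12 (adjusted p = 0.561) and 0.19 (adjusted p = 0.235) did not pass. The 5 µM difference at T20 exceeded that at T4 by 0.43 ± 0.16 (SE), which did not pass either (adjusted p = 0.278), so no difference between the times was shown for LRP6.

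The antagonist DKK1 did not pass in any of the 4 comparisons of digoxin with vehicle on the quantile-normalized scale. At T4 it had 17.50, 17.47 and 17.70 with vehicle, 17.56, 17.69 and 17.79 with 0.5 µM, and 17.78, 17.90 and 17.83 with 5 µM. The 5 µM arrays lay above all vehicle arrays, and the difference was 0.28 ± 0.14 (SE; limma, adjusted p = 0.164). At T20 it had 17.27, 17.43 and 17.22 with vehicle, 17.36, 17.03 and 17.56 with 0.5 µM, and 17.42, 17.34 and 17.48 with 5 µM, and the groups overlapped. The T20 differences were 0.01 (adjusted p = 0.968) and 0.11 (adjusted p = 0.611), with a 95% interval of -0.18 to 0.40 at 5 µM. On the poly-A scale the 5 µM difference at T20 was -0.62 and passed (adjusted p = 0.00312), where the median of all genes was -0.73.

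FZD7 is a Frizzled receptor, and TCF7L2 is the transcription factor partner of beta-catenin also known as TCF4. In the fit of all 24 arrays on the quantile-normalized scale, neither passed in any of the 12 comparisons. FZD7 rested on 3 probe sets and varied widely, from 5.49 to 7.45 over the 24 arrays, with a median of 6.60. The brightest probe set, at 12.05 with T4 vehicle, differed from vehicle by 0.10 (0.5 µM) and 0.01 (5 µM) at T4. At T20 it differed by 0.24 and 0.04. The others were dim, at 5.51 and 6.41 with T4 vehicle, and differed by -0.99 and 0.47 with 5 µM at T20. The gene value followed the dim probe sets in level. Its differences from vehicle at T4 were 0.62 and 0.39 with an SE of 0.38 (adjusted p = 0.349 at 0.5 µM and 0.512 at 5 µM), and at T20 they were 0.15 and 0.06 (adjusted p = 0.853 and 0.928), so changes of this size were not resolved for FZD7. TCF7L2, with 20 probe sets, ran from 8.65 to 9.69 with a median of 9.18. Its digoxin differences lay between 0.05 and 0.19, each with an SE of 0.18, and group ranges overlapped.

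AXIN2, the feedback target, ran from 4.50 to 5.46 over the 24 arrays, and its highest group mean of 5.37 was below the filter value. At T20 it had 4.96, 4.90 and 4.50 with vehicle, 5.33, 5.42 and 5.35 with 0.5 µM, and 5.15, 5.05 and 4.98 with 5 µM. Both digoxin groups lay above vehicle without overlap. When all genes were tested without the filter, the 0.5 µM difference of 0.57 ± 0.13 (SE) passed (limma, adjusted p = 0.0136) and the 5 µM difference of 0.27 did not (adjusted p = 0.218). In that fit T20 vehicle minus T16 was -0.52 and passed as well (limma, adjusted p = 0.0135), with a T16 mean of 5.31. At T4 it had 4.85, 5.14 and 5.06 with vehicle, 5.31, 5.01 and 5.46 with 0.5 µM, and 5.38, 5.25 and 5.40 with 5 µM, and the 5 µM arrays lay above the vehicle arrays. Neither difference passed without the filter (0.25, adjusted p = 0.411, and 0.33, adjusted p = 0.138).

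**Figure D3:**
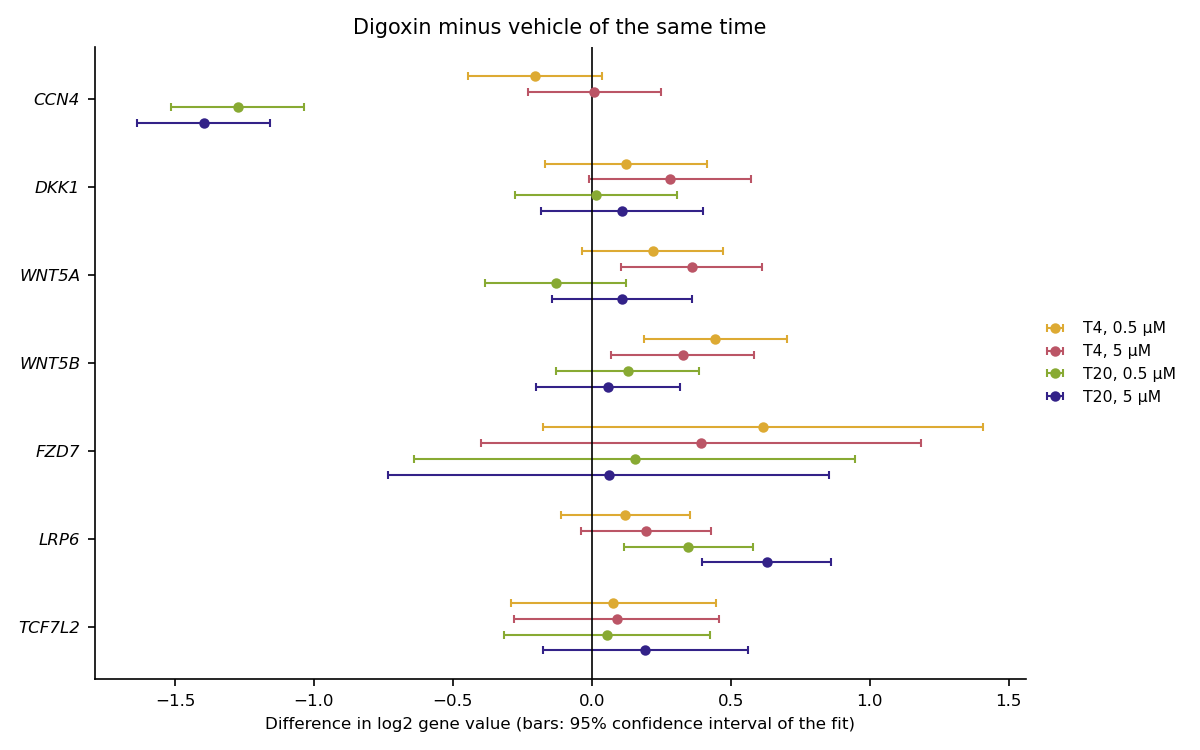
Digoxin minus vehicle of the same time for the 7 tested members (log2 gene value; bars are 95% confidence intervals of the fit over 24 arrays). CCN4, chosen for these differences, is at -1.27 and -1.40 at T20, and LRP6 is at 0.63 with 5 µM at T20.

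Counted over the 6 tested members other than CCN4, 1 was called in the 0.5 µM comparison at T4 (WNT5B, higher), where 9.76% of all genes passed, 5.21% higher and 4.55% lower. WNT5B was in that test only through the group in which it was high, so nothing is read from this count. At 5 µM at T4, 1 was called (WNT5A, higher) beside 22.1% of all genes, 9.18% higher and 12.9% lower. At 0.5 µM at T20, 0 were called by limma and 1 (LRP6) at an unadjusted p under 0.05, beside 10.8% of all genes, 5.98% higher and 4.79% lower. At 5 µM at T20, 1 was called (LRP6, higher) beside 26.1% of all genes, 12.9% higher and 13.2% lower. On the poly-A scale 4 were called there, all lower (DKK1, WNT5A at -0.59, WNT5B at -0.65 and TCF7L2 at -0.55), and LRP6 was not, while 1 was called with 0.5 µM at T20, WNT5A at -0.47 (adjusted p = 0.0335). These shares do not set the members apart from other genes. Between the doses 0 of the 6 were called (limma; 0.442% of all genes at T4 and 2.46% at T20), and at an unadjusted p under 0.05 there were 0 at T4 and 1, LRP6, at T20. In the difference between times 0 were called at either dose (limma; 0.0085% of all genes at 0.5 µM and 0.57% at 5 µM), with 0 at 0.5 µM and 1, LRP6, at 5 µM by the unadjusted p. The share of all genes at 0.5 µM is 1 gene, CCN4, which was chosen on that difference, so nothing is read from it. With median centring or poly-A scaling 0 genes were higher and 0 lower in that comparison.

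Between the untreated groups DKK1, WNT5A and WNT5B were lower at T16 than at T0. DKK1 had 16.15, 16.72 and 16.14 at T16, against 17.43, 17.58 and 17.63 at T0. WNT5A had 10.44, 10.83 and 10.91 at T16, against 11.76, 11.60 and 11.64 at T0. WNT5B had 5.20, 4.89 and 4.94 at T16, against 5.79, 6.09 and 5.81 at T0. None of the 3 genes had overlapping groups. DKK1 fell by 1.21 ± 0.14 (SE; limma, adjusted p = 2.17e-06), WNT5A by 0.94 ± 0.12 (adjusted p = 8.16e-06) and WNT5B by 0.89 ± 0.12 (adjusted p = 1.78e-05). All 9 probe sets of DKK1, 15 of 18 of WNT5A and 9 of 10 of WNT5B were lower. The share of all genes called was 31.6%, with 14.9% higher and 16.7% lower, and 3 of the 6 members were called, all lower. The mean level of the 12 fibroblast markers moved with this comparison and lay between 12.34 and 12.46 on the T16 arrays, against 11.54 to 11.62 on the T0 arrays, and 8 of the 11 above the filter were higher. With vehicle it lay between 11.58 and 11.74 at T4 and between 12.30 and 12.60 at T20, where 7 of the 11 were higher. Of all genes 14.1% were called for T20 vehicle minus T4 vehicle, 6.66% of them higher and 7.42% lower as shares of all genes. The mean level of the smooth muscle markers also rose, from 7.17 to 7.29 with T4 vehicle to 7.49 to 7.61 with T20 vehicle, with 2 of 4 higher. The part of either list in the member differences, those of CCN4 between T4 and T20 among them, was not tested.

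**Figure D4:**
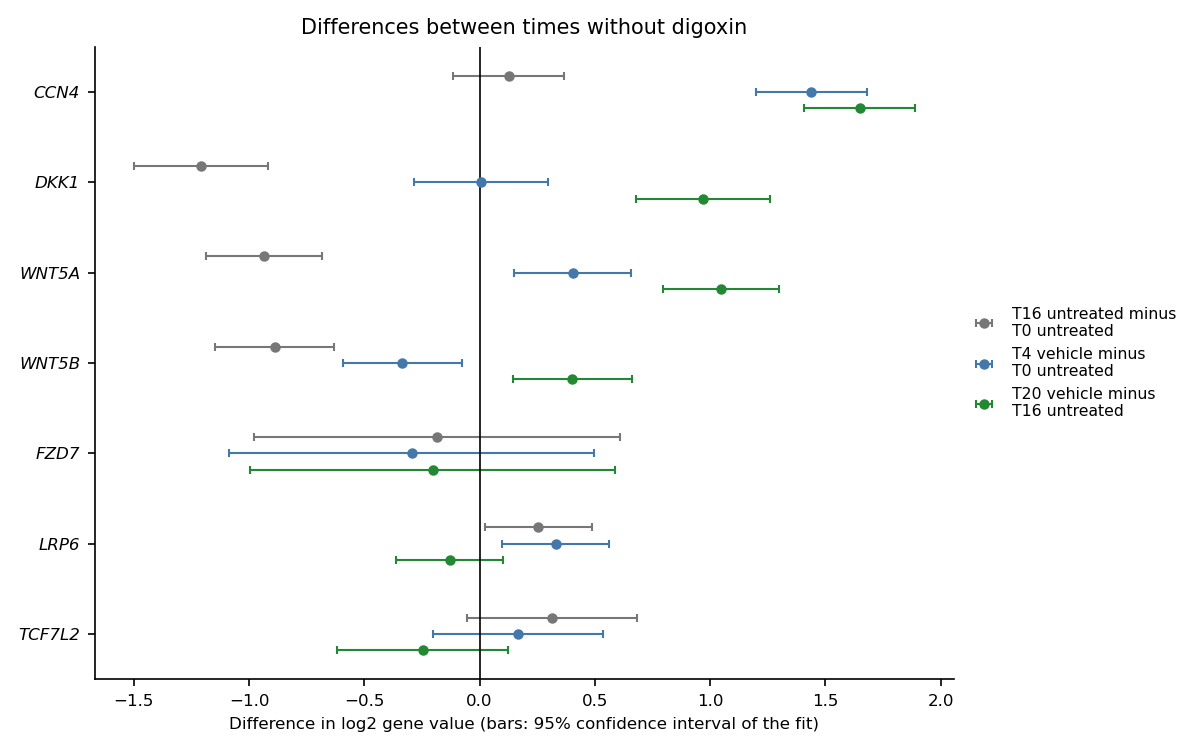
Differences between groups without digoxin for the 7 tested members (log2 gene value; bars are 95% confidence intervals of the fit). DKK1, WNT5A and WNT5B lie below 0 for T16 minus T0 and above 0 for T20 vehicle minus T16, 2 comparisons that share the T16 arrays.

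T20 vehicle was higher than T16 for the same 3 genes, a comparison that shares the T16 arrays with the one above and in which vehicle and time change together. DKK1 differed by 0.97 ± 0.14 (SE; limma, adjusted p = 5.84e-05), with 9 of 9 probe sets higher, WNT5A by 1.05 ± 0.12 (adjusted p = 5.89e-06) and WNT5B by 0.40 ± 0.12 (adjusted p = 0.0229). With these 3 of 6 called, all higher, the share of all genes was 22.8%, with 11.3% higher and 11.5% lower. Both WNT5B means here, 5.41 in T20 vehicle and 5.01 at T16, lay below the filter value of 6.00. The poly-A controls differed by -0.51 (T20 vehicle minus T16), and on their scale the values were larger for each of the 3 genes, up to 1.51 for WNT5A. On that scale 6104 of 12013 genes tested were higher and 113 lower. The WNT5B call was lost without array 2 (adjusted p = 0.0827) or 3 (0.0807) of T16 or array 1 of T20 vehicle (0.107), and in 7 of 12 other alternatives (adjusted p up to 0.0945). T20 vehicle minus T4 vehicle was -0.25 for DKK1 (adjusted p = 0.259), -0.29 for WNT5A (adjusted p = 0.119) and -0.15 for WNT5B (adjusted p = 0.453), and 0 of the 6 passed there (1, WNT5A, at an unadjusted p under 0.05), where 14.1% of all genes did, 6.66% higher and 7.42% lower.

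T4 vehicle minus T0 called 2 of the 6 members, both higher, beside 17.5% of all genes (8.59% higher, 8.94% lower). WNT5A differed by 0.40 ± 0.12 (SE; limma, adjusted p = 0.026), with 17 of 18 probe sets higher. LRP6 differed by 0.33 ± 0.11 (adjusted p = 0.0459), with 11.66, 11.79 and 11.94 in T4 vehicle, against 11.35, 11.56 and 11.50 at T0. Leaving out 1 array at a time ended the WNT5A call in 5 of 24 fits, those without array 2 (adjusted p = 0.0862) or 3 (0.067) of T0 or array 1 (0.0512), 2 (0.0685) or 3 (0.0709) of T4 vehicle. The LRP6 call ended in 17 of 24 fits, with the highest adjusted p without array 3 of T4 vehicle (0.183) and array 1 of T0 (0.16). DKK1 differed by 0.01 (adjusted p = 0.985) and WNT5B by -0.33 (adjusted p = 0.0681).

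Over the 8 group means DKK1 ran with WNT5A (Pearson r = 0.96) and WNT5B (r = 0.89), and WNT5A with WNT5B (r = 0.81). CCN4 ran less closely with WNT5A (r = 0.64) and DKK1 (r = 0.47), and LRP6 most with TCF7L2 (r = 0.66). These are descriptions over 8 points that share the arrays, with no test. Among 10608 tested genes with 3 or more probe sets, the patterns most like that of CCN4 were those of CASP2, a caspase gene (r = 0.98), PDZRN3 (0.93), TTC39C (0.92), TNFRSF1B, a receptor for tumour necrosis factor (0.91), and NUDT9 (0.91). The group means of CASP2 spanned 0.75, less than the 1.77 of CCN4, with 13.05 for 5 µM and 13.19 for 0.5 µM at T20 against 13.65 for T20 vehicle.

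The closest to DKK1 were ZNF35, SLC16A6 and RRP15 (r = 0.99 each), of which SLC16A6 spanned 3.80 and had 7.58 at T16 against 10.72 at T0. The closest to WNT5A were TFAM, a mitochondrial transcription factor (0.99), SLC35F2 (0.99) and MYADM (0.98), and to WNT5B they were PLEKHA3 (0.99), MBNL1 (0.98) and FAM180A (0.97). The closest to LRP6 were EDEM3 (0.98), MGA (0.97) and APC, the tumour suppressor that scaffolds the destruction complex (0.96). FZD7 ran with PPP4R3B (0.97), PSMD14 (0.96) and UBXN2A (0.96), and TCF7L2 with HCFC2 (0.97), PCDHGC3 (0.97) and XPNPEP3 (0.95).

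The other genes of the pathway came from 9 lists of 130 genes in all, of which 129 were on the array and 75 were tested, 68 of them not members. At T4, 10 of the 68 were higher and 1 lower with 0.5 µM digoxin, and 15 were higher and 3 lower with 5 µM. At T20, 8 were higher and 1 lower with 0.5 µM, and 14 were higher and 5 lower with 5 µM. The called shares of the 68 were 16.2% (0.5 µM) and 26.5% (5 µM) at T4 and 13.2% and 27.9% at T20, beside 9.76%, 22.1%, 10.8% and 26.1% of all genes. The median differences of the 68 were 0.14, 0.13, 0.13 and 0.19 in these 4 comparisons, beside 0.01, -0.01, 0.01 and -0.01 for all genes. The balance depended on the scale: on the poly-A scale, with 70 tested, the counts were 1 higher and 1 lower, 3 and 9, 3 and 11, and 4 and 49, with medians of -0.02, -0.13, -0.22 and -0.53.

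Of the 13 receptors and coreceptors that are not members, 3 were higher and 1 lower with 5 µM at T4 and at T20, where 22.1% and 26.1% of all genes were called. LRP5, the other coreceptor, was higher at T4 by 0.75 (0.5 µM; limma, adjusted p = 0.037) and 0.70 (5 µM; adjusted p = 0.0289), and at T20 its differences were 0.21 and 0.32 and did not pass. FZD2, a Frizzled receptor, was lower with 5 µM by -1.01 at T4 (adjusted p = 3.66e-04) and by -0.80 at T20 (adjusted p = 0.00224). ROR2, a receptor for WNT5A, was higher by 0.54 with 0.5 µM at T4 (adjusted p = 0.0404). ZNRF3, a ubiquitin ligase that removes Frizzled receptors from the membrane, was higher by 0.48 and 0.68 at T4 (adjusted p = 0.0445 and 0.00215) and by 0.48 with 0.5 µM at T20 (adjusted p = 0.0407).

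In the destruction complex list, 3 of 17 were higher with 5 µM at T4, and 3 were higher and 1 lower at T20, beside the same 22.1% and 26.1% of all genes. AXIN1, like AXIN2 a scaffold of the complex, was higher at T4 by 0.56 and 0.57 (adjusted p = 0.0169 and 0.00734 by limma), and the kinase GSK3B was higher with 5 µM by 0.45 at T4 and 0.48 at T20 (adjusted p = 0.00698 and 0.00399). PORCN, the acyltransferase that lipidates Wnt ligands for secretion, was lower with 5 µM by -0.37 at T4 and -0.44 at T20 (adjusted p = 0.0309 and 0.00928). In the nuclear list the coactivator EP300 was higher with 5 µM at T4 by 0.70 and at T20 by 0.73, and the corepressor TLE3 at T4 by 0.69. Of 3 secreted antagonists other than DKK1 that were tested, SFRP1, DKK3 and FRZB, 0 were called in the 4 digoxin comparisons (limma), and 0 at an unadjusted p under 0.05.

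Among 14 targets of beta-catenin that are not members, 4 were higher and 1 lower with 5 µM at T20, and 2 were higher and 1 lower at T4, beside 26.1% and 22.1% of all genes called. JUN, an AP-1 subunit, was higher by 0.79 at T4 and 1.61 at T20 with 5 µM, and BMP4, a secreted growth factor, was lower by -1.01 and -0.82. EDN1, the precursor of the vasoconstrictor endothelin, was higher by 2.16 with 5 µM at T20 (limma, adjusted p = 3.05e-06) and had a difference of -0.42 at T4 that did not pass (adjusted p = 0.257). MYC was higher by 0.65 with 5 µM at T20 (adjusted p = 7.81e-04) and lower by -0.83 with 0.5 µM at T4 (adjusted p = 2.48e-04). In T16 minus T0, 4 of the 14 were higher and 7 lower, beside 31.6% of all genes called, with TBX3 at -1.24, SOX9 at -1.60 and BMP4 at 1.73.

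At T20 the digoxin differences of CCN4 were opposite in sign to those of the other CCN genes that were tested, CCN1 and CCN2. CCN2, a matricellular protein also called CTGF, was higher with digoxin by 1.07 (0.5 µM) and 1.60 (5 µM) at T4 and by 2.51 and 4.01 at T20, and CCN1 by 0.47, 0.78, 0.85 and 1.44. All 8 of these differences passed. With 5 µM at T20, CCN2 had 17.80, 17.91 and 18.01, against 13.95, 13.93 and 13.80 with vehicle. For CCN2 the 5 µM difference at T20 exceeded that at T4 by 2.41 ± 0.24 (SE; limma, adjusted p = 2.67e-05), while that of CCN4 was lower by 1.41. The untreated groups also parted them: CCN2 was at -5.11 and CCN1 at -0.97 for T16 minus T0 (adjusted p = 2.58e-14 and 3.98e-06), where CCN4 was at 0.13.

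**Figure D5:**
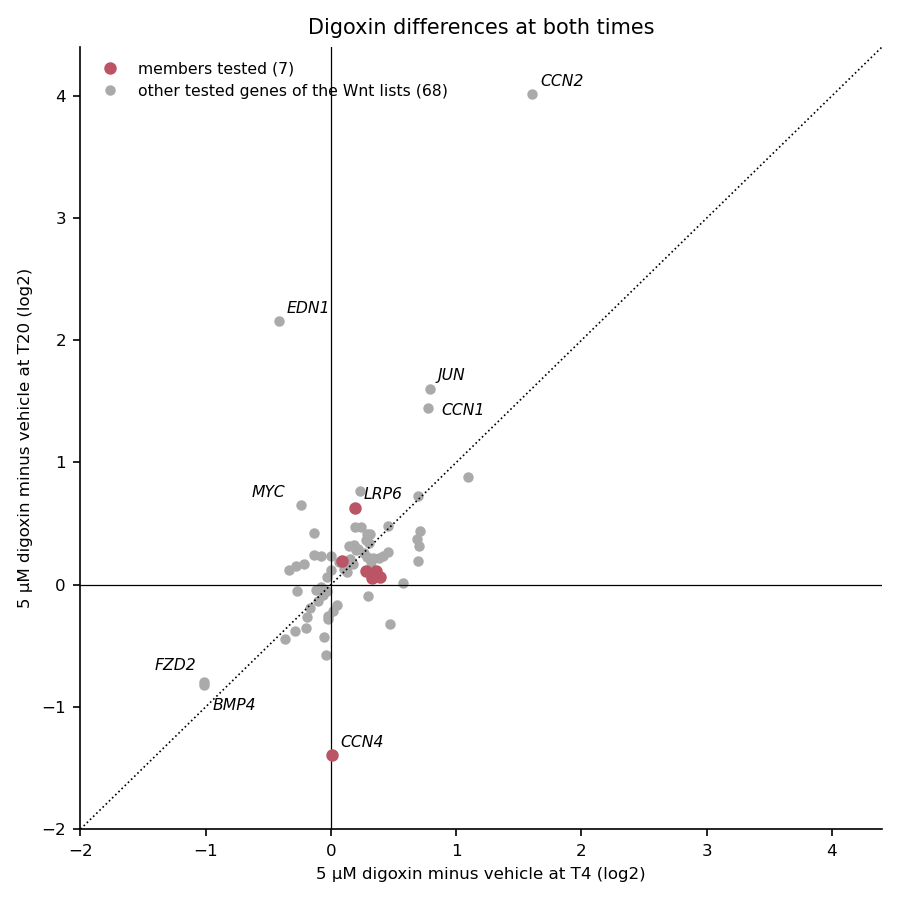
Difference between 5 µM digoxin and vehicle (log2) at T4 (x axis) and T20 (y axis) for the 7 tested members and the 68 other tested genes of the Wnt lists; the dotted line marks equal differences. CCN4 lies at 0.01 and -1.40, far below the line, and CCN2 (1.60 and 4.01), EDN1 (-0.42 and 2.16) and MYC (-0.24 and 0.65) lie above it.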

How the data were processed

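RNA from 24 samples of AC16 cells was hybridized to Human Gene 2.0 ST arrays. Per the labels' design text, the authors normalized the arrays by Robust Multi-array Average with Galaxy tools called GIANT, and the deposited values are log2 values of 352859 probe sets that lie at the level of exons. The submitters' processing notes name limma, and no source used here gives the background method or versions. The deposited log2 values ran from 1.28 to 19.93, although a 16-bit scan ends at 16, so they may have been transformed in a way not stated, and differences are not linear folds. The number of arrays limits the precision (median SE 0.14 per difference).

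Probe sets with 1 gene symbol in the platform annotation were kept (259224), those with several (13116) or no listing (80519) were left out, and 1726 symbols were updated to RefSeq, WISP1 to CCN4 among them. Values were quantile normalized and combined by median polish into 1 value per gene. Tested were genes with a highest group mean of at least 6.00, the median gene value. The fit was limma 3.58.1 in R 4.3.3 (lmFit, eBayes) on 24 arrays in 8 groups with 16 residual degrees of freedom, and 12 comparisons were each adjusted by Benjamini-Hochberg. The workflow was checked on simulated data.

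The members and gene lists were chosen with earlier results of these data known. Beside the members, the genes named are up to 3 per list and digoxin comparison with the smallest adjusted p, and the 5 (CCN4) or 3 most similar by Pearson r over group means, leaving out unnamed loci and small or antisense RNA symbols. Samples with the same replicate number did not deviate together (median correlation -0.01, from -0.17 to 0.17 over 84 pairs), so no pairing was used. Alternatives were other summaries, scalings and filters, a replicate block, other settings of the fit and each array left out. No sequence is shown for CCN4, and windows for AXIN2, FZD7 and LRP6 were not used here.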

Additional observations from a re-analysis of the deposited data

Results flagged for a closer look

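The difference between digoxin and vehicle was not the same at T4 and T20 for CCN4, which was chosen on it. With 5 µM it also differed between the times for 3 of the 68 other tested genes of the Wnt lists, beside 0.57% of all genes. For CCN4 it was lower at T20 than at T4 by 1.07 at 0.5 µM (T20 minus T4 -1.07) and by 1.41 at 5 µM (-1.41), the values on which the gene was chosen, so no test is attached. For 3 genes the 5 µM difference was higher at T20, by 0.88 for MYC (limma, adjusted p = 0.024), 2.58 for EDN1 (adjusted p = 7.9e-04) and 2.41 for CCN2 (adjusted p = 2.67e-05). At 0.5 µM the same difference was 0.82 for MYC (adjusted p = 0.189), 1.27 for EDN1 (adjusted p = 0.646) and 1.44 for CCN2 (adjusted p = 0.0523), and none passed.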

How the results depend on the processing

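The lower DKK1, WNT5A and WNT5B at T16 against T0 and the higher DKK1 and WNT5A in T20 vehicle against T16 passed under each of the alternatives in which the gene was tested. For T16 minus T0, LRP6 fell short in 23 of 24 fits without 1 array and in 13 of 14 other alternatives (limma, lowest adjusted p = 0.0391 and 0.0499). TCF7L2 fell short there in 23 of 24 and in 12 of 13 (lowest adjusted p = 0.0416 and 0.0482). The members called with 0.5 µM at T4 went to 0 with the plain mean or the median of probe sets, poly-A scaling, no filter, a stricter filter, dim probe sets left out, and eBayes with trend and robust. WNT5B was tested in only 12 of the 14 alternatives other than leaving out an array, and it fell short in 5 of these. In the rest, the stricter filter among them, it was not tested. Those called with 5 µM at T4 went to 0 with the mean, the median, values as deposited, poly-A scaling, no filter or dim probe sets left out, and to 2 with median centring, only the groups compared, or array weights. With 0.5 µM at T20 the count went to 1 with the mean, deposited values, median centring, poly-A scaling (WNT5A, lower), a stricter filter, dim probe sets left out, the replicate block (LRP6, 0.35, adjusted p = 0.0386), trend and robust, or array weights. The replicate block moved no other count of members called; the numbers did not pair the samples. With 5 µM at T20 the count went to 0 with the median of probe sets and to 4 with poly-A scaling, where DKK1, WNT5A, WNT5B and TCF7L2 were lower and LRP6 was not called. Poly-A scaling also gave 1 between the doses at T20 and 2 (WNT5A and WNT5B) for the difference between times at 5 µM. T4 vehicle against T0 went to 0 with the mean, the median, poly-A scaling or no filter, and to 1 with only the groups compared. With each array left out in turn the counts ran from 0 to 1 (0.5 µM at T4), 0 to 2 (5 µM at T4), 0 to 1 (0.5 µM at T20) and 0 to 2 (T4 vehicle against T0).

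On the poly-A scale the 5 µM differences at T20 changed sign for DKK1 (-0.62), WNT5A (-0.59), WNT5B (-0.65), FZD7 (-0.66, not called on either scale), LRP6 (-0.085) and TCF7L2 (-0.55), where the median of all genes was -0.73, and the cause was not tested. CCN4 at T20 stayed between -1.57 and -1.13 at 0.5 µM and between -2.05 and -1.27 at 5 µM over the 14 alternatives other than leaving out an array. Median centring gave 1348 genes higher and 1185 lower with 5 µM at T4, beside 1080 and 1514, and 2010 and 1115 with 5 µM at T20, beside 1513 and 1554. The 3 arrays of a group and the 3 probe sets of FZD7 limit what could be resolved.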
